A study of Mus musculus with 28 samples.

Results

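Potassium channel genes were examined as a family in the hippocampus of wild-type mice and of cbp+/- littermates, heterozygous for the gene of the histone acetyltransferase and coactivator CBP. Members were the genes whose array row had a single gene symbol starting with Kcn, and the row with the highest mean stood for each gene. This rule, which uses no difference between groups, gave 92 of the 19938 genes tested. The mice were C57/DBA F1 hybrid females aged 3 months, and each array held RNA pooled from the hippocampi of 3 to 4 of them. The 28 arrays formed 8 groups. In each genotype there were 5 standard-cage controls (2 from naive mice and 3 from mice injected with vehicle, DMSO/saline), 3 arrays after the histone deacetylase inhibitor TSA (trichostatin A, 2.4 mg/kg into the peritoneum, tissue taken 75 min later), 3 after novelty with vehicle (1 h spent singly in a new box that held toys and tubing), and 3 after both, with novelty starting 15 min after TSA. Per the labels, the control arrays also belong to another experiment run in parallel. The labels do not describe the cbp allele further.

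Potassium channels let potassium leave a cell and so pull its membrane towards rest. Voltage-gated (Kv) channels open on depolarization and end the action potential, set firing rate or delay the first spike; silent Kv subunits form no channel alone but change the gating of others, and auxiliary subunits adjust trafficking and inactivation. Inward rectifiers hold the resting potential and answer to G proteins or ATP, and in astrocytes they clear potassium. Channels with tandem pore domains carry leak current. Calcium-activated channels shape the afterhyperpolarization, and sodium-activated channels open after heavy firing. In the hippocampus these classes together set the excitability of pyramidal and granule neurons.

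Values are log2 expression from the authors' deposited table, so a difference of 1 is a doubling, and they compare arrays within a gene, not genes with each other. In all, 54 of the 92 members had a mean at or above the median gene mean of 6.10. Array medians ran from 5.46 to 5.63. The pan-neuronal marker list averaged 10.7 to 11.2 on every array and the hippocampal excitatory list 7.91 to 8.44, whereas thalamic markers averaged 6.51 to 7.09. Crebbp, the gene for CBP, read 8.68 to 9.70 on wild-type arrays (median 9.32) against 8.97 to 9.77 (median 9.42) on cbp+/- arrays and was thus not lower in cbp+/- (difference 0.21 ± 0.12 SE, adjusted p = 1, limma). The labels do not say which part of the gene is lost or whether the probes lie in it, so its level does not check the genotype labels. Arrays were also put into 4 sets. Set 1 was the naive controls, taken from their labels. Sets 2, 3 and 4 are named by no label: vehicle controls 3, 4 and 5 deviated from their group means together with replicates 1, 2 and 3 of the other groups. In bulk RNA, fewer cells of a type and less RNA per cell cannot be told apart, and p-values measure the spread between pools.

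The upstream regions of Kcns3, Kcnn3, Kcng3, Kcnj4 and Kcna3 are shown because the genotype and TSA results below turn on these genes, and CBP and histone acetylation act at promoters. RefSeq's table for GRCm38.p6 held 95 start sites of 70 of the 92 members; Kcnq3, Kcna1 and Kcng1 were not among them. Each line gives the 250 bases before a start site, 5′ to 3′ on the gene's strand, with matches on either strand to the cAMP response element TGACGTCA or its half-site TGACG, to CCAAT and to the GC box GGGCGG in capitals. The 5-letter half-site lies within the full element, and no other motif searched contains another.
Kcns3, first start, chr12:11150843-11151092, minus strand: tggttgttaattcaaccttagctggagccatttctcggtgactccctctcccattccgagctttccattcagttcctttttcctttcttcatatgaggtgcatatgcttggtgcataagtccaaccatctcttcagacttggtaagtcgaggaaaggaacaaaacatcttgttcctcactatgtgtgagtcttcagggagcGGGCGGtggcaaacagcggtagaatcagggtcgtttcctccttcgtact
Kcns3, second start, chr12:11150374-11150623, minus strand: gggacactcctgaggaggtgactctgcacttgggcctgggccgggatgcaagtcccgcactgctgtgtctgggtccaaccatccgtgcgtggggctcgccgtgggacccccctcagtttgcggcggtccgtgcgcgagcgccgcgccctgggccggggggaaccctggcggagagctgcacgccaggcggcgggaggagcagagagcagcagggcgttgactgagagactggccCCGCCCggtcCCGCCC
Kcnn3, chr3:89519914-89520163, plus strand: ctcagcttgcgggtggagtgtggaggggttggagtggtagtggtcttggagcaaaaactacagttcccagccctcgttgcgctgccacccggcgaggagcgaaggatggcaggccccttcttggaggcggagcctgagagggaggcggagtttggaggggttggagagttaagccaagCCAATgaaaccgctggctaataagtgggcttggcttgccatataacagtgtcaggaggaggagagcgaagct
Kcng3, chr17:83631896-83632145, minus strand: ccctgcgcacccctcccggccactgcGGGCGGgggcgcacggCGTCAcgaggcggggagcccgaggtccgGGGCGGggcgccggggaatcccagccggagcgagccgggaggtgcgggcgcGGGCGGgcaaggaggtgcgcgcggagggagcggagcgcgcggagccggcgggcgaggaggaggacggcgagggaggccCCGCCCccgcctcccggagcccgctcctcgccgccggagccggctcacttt
Kcnj4, chr15:79505242-79505491, minus strand: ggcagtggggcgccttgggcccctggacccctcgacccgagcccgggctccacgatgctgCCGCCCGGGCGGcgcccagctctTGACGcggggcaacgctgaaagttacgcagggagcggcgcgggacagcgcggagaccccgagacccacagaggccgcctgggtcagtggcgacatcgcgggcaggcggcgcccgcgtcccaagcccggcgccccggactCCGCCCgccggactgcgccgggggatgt
Kcna3, chr3:107035912-107036161, plus strand: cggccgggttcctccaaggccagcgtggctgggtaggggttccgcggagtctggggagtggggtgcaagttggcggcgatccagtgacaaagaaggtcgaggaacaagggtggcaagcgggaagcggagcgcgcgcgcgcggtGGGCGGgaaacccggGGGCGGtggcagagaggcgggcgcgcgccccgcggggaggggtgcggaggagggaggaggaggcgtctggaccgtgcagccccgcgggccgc
The full cAMP response element, the site of the CREB proteins that recruit CBP, was in 0 of the 95 member windows and in 1.55% of all 32851 windows. Its half-site was in 15 member windows (15.8%), among them those of Kcng3 and Kcnj4, and in 17.8% of all windows. A CCAAT match occurred in 29.5% of member windows, including that of Kcnn3, against 33.8% of all. GC boxes were in 44.2% of member windows against 32.7%, beside a median GC content of 58.8% against 52.4%. Kcnn3 had no GC box in its window, whereas Kcng3 had 4, Kcnj4 had 3, and Kcna3 and the second start of Kcns3 had 2 each. A match describes letters in a window and not a bound site.

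The first comparison asked which channel genes differ between cbp+/- and wild-type hippocampus over all 4 conditions. Most differences were small and negative: 71 of 92 members were lower in cbp+/- on average, with a median of -0.04, against 53.9% of all genes and a median of -0.01. In the fit without a block, 0 of 92 members passed an adjusted p of 0.05, as did 0% of all genes (limma, Benjamini-Hochberg); 1 member, Kcns3, had an unadjusted p under 0.05, against 2.6% of genes. With array set as a block, 3 members were lower and 0 higher: Kcns3, a silent subunit that modifies Kv2 channels, Kcnq3, a subunit of the M channel that restrains repetitive firing, and Kcna1, a Kv1 subunit of axons. Against these 3 of 92 stood 0.502% of all genes called lower and 0.16% called higher. With each cbp+/- array paired with the wild-type array of its condition and number, 0 members passed, 14 had an unadjusted p under 0.05 (10.2% of genes), and 0.266% of genes were called. The 3 calls thus depended on the array sets, which were built from these same values, and without set 3 or set 4 the count was 0. The plot of all members shows the 3 genes at the negative edge of their classes.

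**Figure D1:**
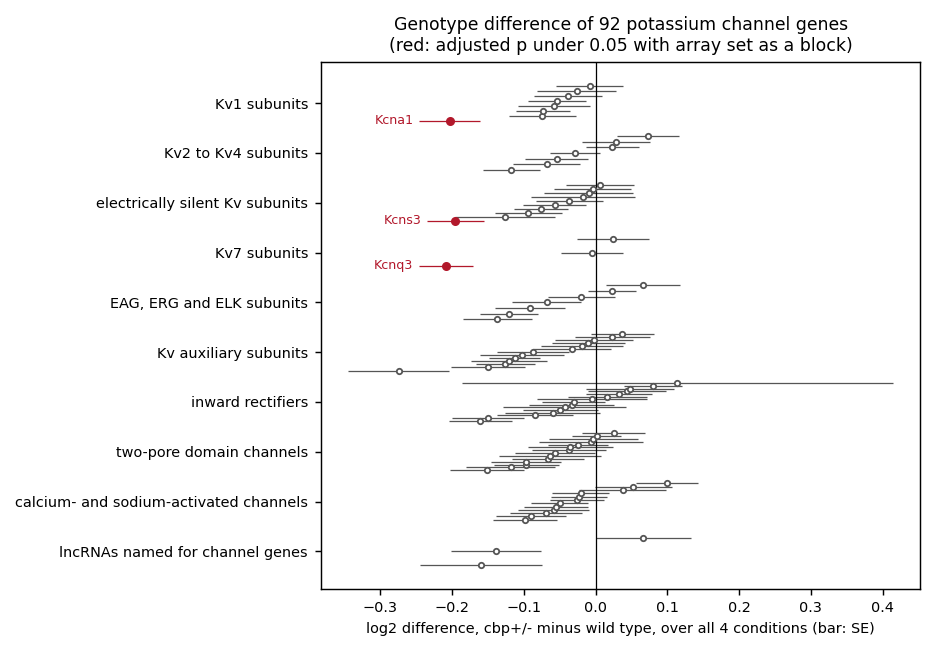
Genotype difference of each of the 92 potassium channel genes (log2, cbp+/- minus wild type, averaged over 4 conditions; bars, SE with array set as a block), grouped by class on the vertical axis. Filled red points are Kcna1, Kcns3 and Kcnq3, which had an adjusted p under 0.05 with the block; most other points lie slightly left of 0.

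Kcns3 gave the smallest p without a block. In wild-type mice it read 6.76, 6.74, 6.80, 6.78 and 6.84 in controls 1 to 5, 6.75, 6.98 and 6.79 after TSA, 6.71, 6.86 and 6.74 after novelty, and 6.79, 6.85 and 6.76 after both. In cbp+/- mice it read 6.77, 6.68, 6.69, 6.74 and 6.71 in controls, 6.51, 6.49 and 6.63 after TSA, 6.65, 6.80 and 6.57 after novelty, and 6.59, 6.29 and 6.56 after both. The 6 cbp+/- arrays with TSA all lay under the 6 wild-type arrays with TSA, while arrays without TSA overlapped between genotypes. The share of all genes that separate so was not counted. Over all conditions Kcns3 differed by -0.20 ± 0.04 (0.873 times the wild-type level; adjusted p = 0.178 without a block, 0.0141 with array set, 0.0591 with pairs), and it was lower in 13 of 14 pairs. The difference was -0.07 ± 0.07 in controls, -0.30 ± 0.09 after TSA, -0.10 ± 0.09 after novelty and -0.32 ± 0.09 after both. The genotype by TSA interaction of Kcns3 was -0.22 (95% interval -0.39 to -0.06, unadjusted p = 0.0104 from limma), which did not pass over all genes (adjusted p = 1). Of the variance of Kcns3, 70.4% lay between groups and 2.05% between array sets. Its mean genotype difference was -0.03, -0.15, -0.29 and -0.17 in sets 1 to 4. In set 3 the pair after TSA differed by -0.49 and the pair after both by -0.56, against -0.16 to -0.24 in the other pairs with TSA. With the block, the difference of Kcns3 was -0.22 without array set 2 (adjusted p = 0.0605), -0.15 without set 3 (0.168) and -0.21 without set 4 (0.147), and without the 3 arrays with raised choroid plexus markers it was -0.19 (adjusted p = 0.0565).

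Kcnq3 and Kcna1 behaved otherwise: 84.1% and 77.4% of their variance lay between array sets, and the genotype difference showed within sets. Kcnq3 in wild-type mice read 8.98, 8.94, 9.28, 9.22 and 8.65 in controls, 9.25, 9.26 and 8.50 after TSA, 9.53, 9.32 and 8.56 after novelty, and 9.28, 9.14 and 8.67 after both. In cbp+/- mice the Kcnq3 values were 8.67, 8.67, 9.10, 8.99 and 8.39 in controls, 9.20, 8.97 and 8.50 after TSA, 9.03, 9.12 and 8.48 after novelty, and 9.18, 9.0 and 8.29 after both. The genotypes overlapped widely across sets, with set 4 low in both, but within pairs Kcnq3 was lower in cbp+/- in 13 of 14, and the remaining pair differed by 0.003. Its difference was -0.21 ± 0.13 without a block (adjusted p = 1), -0.21 ± 0.04 with array set (adjusted p = 0.00526) and -0.21 ± 0.04 with pairs (adjusted p = 0.0505), or 0.865 times the wild-type level. By set the mean difference of Kcnq3 was -0.29, -0.21, -0.22 and -0.18 in sets 1 to 4.

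Kcna1 in wild-type mice read 8.41, 8.34, 8.78, 8.55 and 8.0 in controls, 8.77, 8.35 and 8.21 after TSA, 8.80, 8.39 and 8.15 after novelty, and 8.80, 8.51 and 8.47 after both. In cbp+/- mice Kcna1 read 8.30, 8.27, 8.54, 8.27 and 8.04 in controls, 8.71, 8.35 and 7.91 after TSA, 8.72, 8.24 and 7.80 after novelty, and 8.63, 8.19 and 7.83 after both. The genotypes overlapped, and 12 of 14 pairs were lower in cbp+/-. Kcna1 differed by -0.20 ± 0.11 without a block (adjusted p = 1), -0.20 ± 0.04 with array set (adjusted p = 0.0186) and -0.20 ± 0.05 with pairs (adjusted p = 0.0840), or 0.868 times the wild-type level. Its mean difference was -0.08, -0.14, -0.19 and -0.31 in sets 1 to 4, and leaving out 1 array, cbp+/- novelty replicate 3, gave an adjusted p of 0.0525.

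Counted by pairs, 0 members were lower in cbp+/- in all 14 pairs (0.14% of genes were), 2 were lower in at least 13 (0.707% of genes) and 6 in at least 12 (2.04% of genes). The 6 were Kcns3, Kcnq3, Kcna1, Kcnip3, which encodes a calcium-binding protein that partners Kv4 channels and also binds DNA, Kcnh1 and Kcnh3, both of the EAG, ERG and ELK class. No member was higher in 12 or more pairs, against 1.22% of genes. By array set, 53, 56, 73 and 54 of the 92 members were lower in sets 1 to 4, against 46.9%, 43.5%, 56.9% and 51.9% of genes, so the lean to lower values was largest in set 3. With array set as a block and without set 3, 56 of 92 members were negative and the median over members was -0.02. The count of negative members over all conditions came from the fit without a block, so the 2 counts differ in more than set 3. The share of all genes negative without set 3 is not given here.

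**Figure D2:**
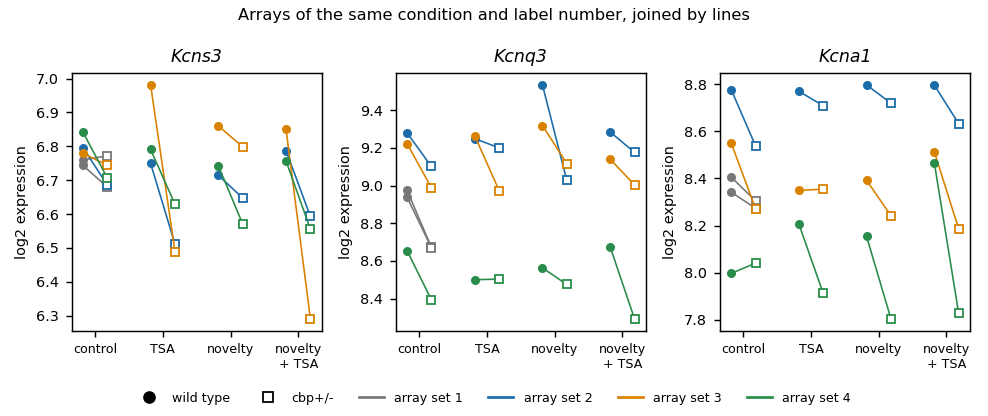
Log2 expression of Kcns3, Kcnq3 and Kcna1 on each array by condition, wild type as filled circles and cbp+/- as open squares; lines join arrays of the same condition and number, coloured by array set. Kcns3 lines fall most after TSA, and Kcnq3 and Kcna1 lines fall in most pairs while the sets lie at different heights.

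Among the other voltage-gated classes, all 8 Kv1 subunits had a negative genotype difference (median -0.06), from -0.20 for Kcna1 to -0.01 for Kcna7, whose sign turned with median centring and with array weights. Of the silent subunits 9 of 10 were negative (median -0.05), Kcnv2 alone being positive at 0.01, a sign that array weights turned. Kcns1 and Kcnf1 of this class differed by -0.08 ± 0.04 and -0.13 ± 0.08. The Kv2 to Kv4 subunits were mixed, 4 of 7 negative (median -0.03), from -0.12 ± 0.13 for Kcnc4, which carries fast-inactivating current, to 0.07 ± 0.08 for Kcnd1. Kcnc1, the fast delayed rectifier of interneurons, differed by -0.07 ± 0.09 and Kcnd2, the main dendritic A-type subunit, by 0.02 ± 0.06, a sign that array weights turned. In the Kv7 class 2 of 3 were negative (median -0.00), and Kcnq1 differed by 0.02 ± 0.05. In the EAG, ERG and ELK class 5 of 7 were negative (median -0.07), from -0.14 ± 0.15 for Kcnh3 to 0.07 ± 0.07 for Kcnh5, with Kcnh2 at -0.09 ± 0.07. None of these passed in either fit other than Kcns3, Kcnq3 and Kcna1 with the block.

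Auxiliary Kv subunits had the lowest class median, -0.09, and 11 of 13 were negative. Kcnip3 had the largest negative difference of all members, -0.27 ± 0.18 without a block and ± 0.07 with array set (adjusted p = 0.0716), and 12 of 14 pairs were lower. On wild-type arrays Kcnip3 read 7.56 to 9.01 (median 8.51) against 7.52 to 8.76 (median 8.27) on cbp+/- arrays, so the genotypes overlapped, and 76.5% of its variance lay between array sets. The beta subunits, which bind the inner face of Kv1 channels, differed by -0.11 ± 0.07 (Kcnab1), -0.10 ± 0.08 (Kcnab2) and -0.12 ± 0.07 (Kcnab3). Kcnrg had the highest value of the class, 0.04 ± 0.06. With array set as a block, 5 of the 13 had an unadjusted p under 0.05, against 11.9% of all genes, and 0 passed after adjustment.

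Inward rectifiers were mixed, with 9 of 15 negative (median -0.03). The lowest was Kcnj11, the pore of ATP-sensitive channels, at -0.16 ± 0.08 (adjusted p = 1; 0.0969 with the block), followed by Kcnj4 at -0.15 ± 0.10 and the G-protein-gated Kcnj9 at -0.08 ± 0.06. Its relatives Kcnj3 and Kcnj6 stood at 0.08 ± 0.06 and 0.05 ± 0.07. Members known from other cells did not separate by genotype: Kcnj10 of astrocytes differed by -0.00 ± 0.17 and its partner Kcnj16 by 0.03 ± 0.09, and Kcnj8 of pericytes by -0.03 ± 0.08, signs that turned under array weights (Kcnj16 and Kcnj8) or under repeated quantile normalization and median centring (Kcnj10). Among tandem-pore leak channels 12 of 14 were negative (median -0.05), with Kcnk4 at -0.15 ± 0.09, Kcnk1 at -0.12 ± 0.12, Kcnk3 at -0.10 ± 0.06, microglial Kcnk13 at -0.06 ± 0.07 and Kcnk18 highest at 0.03 ± 0.05. Among calcium- and sodium-activated channels 9 of 12 were negative (median -0.04), from -0.10 ± 0.12 for Kcnt1 to 0.10 ± 0.08 for Kcnt2, both sodium-activated; Kcnma1, the large-conductance channel, was at -0.02 ± 0.06, and the small-conductance Kcnn2 and Kcnn3 at -0.06 ± 0.07 and -0.09 ± 0.05. The 3 long noncoding RNAs named for channel genes were in no class, and Kcnd3os and Kcnmb4os1 differed by -0.14 ± 0.08 and -0.16 ± 0.11.

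The negative lean depended partly on scaling and weights. With each array centred on its median, 30 of 92 members were positive rather than 21, with quantile normalization 25 and with array weights 30. Among the 54 brighter members 7 were positive (median -0.07). The shares of all genes in these settings, or of the brighter genes, are not given here, so these counts do not set the members apart from other genes. Some marker lists also leaned negative. All 7 pan-neuronal markers were negative (median -0.04, 0 called in either fit), and the list's mean level ran from 10.7 to 11.2 in both genotypes. Of the hippocampal excitatory markers 2 of 11 were lower with the block, Wfs1, a marker of CA1 pyramidal neurons, by -0.41 ± 0.05 (adjusted p = 0.000343) and Mpped1 by -0.17 ± 0.04 (adjusted p = 0.0390), and the mean of the list was 7.99 to 8.39 on wild-type arrays against 7.91 to 8.44 on cbp+/- arrays. Of the astrocyte markers 7 of 8 were negative and Gfap was lower with the block (-0.28 ± 0.06, adjusted p = 0.0127). The part of these markers in the channel differences was not tested. For genotype, the signs of the excitatory markers not named, and of other cell-type lists, are not given here. Of 27 measured partners of potassium channels, such as scaffolds and the sulfonylurea receptors, 18 were negative (median -0.01) and 0 were called in either fit.

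Within single conditions, 0 of 92 members passed in controls, after TSA, after novelty or after both, without a block, where 0% of genes passed in each; at an unadjusted p under 0.05 there were 0, 2, 3 and 3 members against 1.02%, 1.66%, 1.65% and 1.49% of genes. With array set as a block 0 members passed and 2, 9, 14 and 12 had an unadjusted p under 0.05, against 4.14%, 7.12%, 7.48% and 7.86% of genes, of which 0.00502% were called after novelty and 0% otherwise. The interactions of genotype with TSA, genotype with novelty and TSA with novelty also gave 0 called members and 0% of genes in both fits, with 3, 0 and 1 members at an unadjusted p under 0.05 without a block (2.31%, 0.978% and 1.24% of genes) and 5, 9 and 2 with it (8.09%, 4.86% and 2.83%). The 3 for genotype by TSA were Kcns3, the leak channel Kcnk5 (-0.24 ± 0.07, adjusted p = 1) and Kcna7 (-0.26 ± 0.11, adjusted p = 1). Kcnk5 was narrow in level, with group means from 4.26 to 4.51, and 63.0% of its variance lay between groups. Its mean over all arrays, 4.41, lay under the median gene mean of 6.10, and Kcnk5 was named here after its values were seen. In wild type its mean was 4.36 in controls, 4.26 after novelty, 4.50 after TSA and 4.51 after both, while in cbp+/- the group means stayed between 4.37 and 4.44.

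The second comparison asked what TSA does, over both genotypes and both housings. A single member, Kcnn3, which encodes a small-conductance calcium-activated channel of the afterhyperpolarization, rose without a block: 1 of 92, against 0.662% of genes (0.446% higher and 0.216% lower). With array set as a block 5 members rose and 0 fell, against 2.66% and 1.85% of genes: Kcng1 and Kcng3, both silent Kv subunits, Kcnn3, the inward rectifier Kcnj4 and the Kv1 subunit Kcna3. Of all members 36 were negative without a block, against 46.1% of genes (median 0.02, all genes 0.01). Beside these calls, 2 of 11 hippocampal excitatory markers were lower after TSA with the block, Lct by -0.29 ± 0.07 and Neurod6 by -0.26 ± 0.07. All 10 choroid plexus markers were positive with 0 called. The part of both lists in the channel differences was not tested. The signs of the excitatory markers not named, and of other cell-type lists, are not given here for TSA. At an unadjusted p under 0.05 there were 8 members without a block (8.73% of genes) and 18 with it (15.9%).

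Kcnn3 without TSA read 7.93, 7.95, 7.82, 7.79 and 7.90 in wild-type controls, 8.02, 7.70 and 7.65 after wild-type novelty, 7.74, 7.69, 7.93, 7.73 and 7.44 in cbp+/- controls, and 7.68, 7.50 and 7.72 after cbp+/- novelty. With TSA, Kcnn3 read 8.04, 7.96 and 7.97 in wild type in the cage, 8.13, 8.33 and 8.01 in wild type after novelty, 8.11, 7.91 and 8.17 in cbp+/- in the cage, and 8.12, 8.08 and 7.95 in cbp+/- after novelty. The 12 TSA arrays lay in the upper part of the range, with 4 arrays without TSA above the lowest of them, and within array sets all 12 differences of TSA against its own background were positive (0.828% of genes, and 2 of 92 members, were so). Kcnn3 rose by 0.31 ± 0.05 (1.24-fold, adjusted p = 0.00421) without a block and 0.33 ± 0.05 (adjusted p = 0.000358) with it. By background the change was 0.11 ± 0.10 in wild type in the cage, 0.36 ± 0.10 in cbp+/- in the cage, 0.36 ± 0.11 in wild type after novelty and 0.42 ± 0.11 in cbp+/- after novelty. The genotype by TSA interaction was 0.15 (95% interval -0.07 to 0.38, adjusted p = 1, limma), so a difference between genotypes was not resolved.

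Kcng1 was the other member higher in 12 of 12 within-set differences. In sets 2 and 3 the TSA arrays of Kcng1 read 8.24, 8.12, 8.11, 8.13, 8.17, 8.10, 8.27 and 7.87, against 7.95, 7.61, 7.59, 7.76, 7.84, 7.69, 7.74 and 7.67 without TSA. In set 4 Kcng1 read 7.37, 7.33, 7.35 and 7.19 with TSA and 7.19, 7.17, 6.96 and 6.99 without. Set 4 lay below sets 2 and 3 with and without TSA, so TSA and other arrays overlapped across sets. Kcng1 rose by 0.34 ± 0.05 with array set as a block (1.27-fold, adjusted p = 7.7e-05), against 0.41 ± 0.15 without it (adjusted p = 0.324). Its difference was 0.31 to 0.37 in the 4 backgrounds with the block, and the genotype by TSA interaction was 0.00 (95% interval -0.18 to 0.19 with the block).

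Kcng3, Kcnj4 and Kcna3 passed with the block and stood closer to the threshold. Kcng3 ran from 5.95 to 7.34 with TSA (median 6.66, 12 arrays) and from 5.66 to 7.15 without (median 6.13, 16 arrays), and it rose by 0.30 ± 0.08 (adjusted p = 0.0204; 0.35 ± 0.18 and 0.607 without a block), higher in 10 of 12 within-set differences. Kcnj4 ran from 6.94 to 7.95 with TSA (median 7.42) and from 6.70 to 7.56 without (median 7.22), and it rose by 0.20 ± 0.05 (adjusted p = 0.0239; 0.22 ± 0.10 and 0.552 without a block), higher in 9 of 12. Kcna3 ran from 7.0 to 7.76 with TSA (median 7.11) and from 6.77 to 7.55 without (median 7.09), and it rose by 0.19 ± 0.05 (adjusted p = 0.0296; 0.18 ± 0.10 and 0.715 without a block), higher in 10 of 12. All 3 overlapped between TSA and no TSA. Kcna3 was no longer called after leaving out any of 10 of the 28 arrays and Kcnj4 after any of 4. The Kcna3 call was also lost without the 3 arrays with raised choroid plexus markers (0.14, adjusted p = 0.193) and with vehicle controls only under the block (adjusted p = 0.0510). Without array set 2 the calls were Kcng1, Kcng3 and Kcnn3, without set 3 Kcng1, Kcnj4 and Kcnn3, and without set 4 Kcng1 and Kcnn3.

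**Figure D3:**
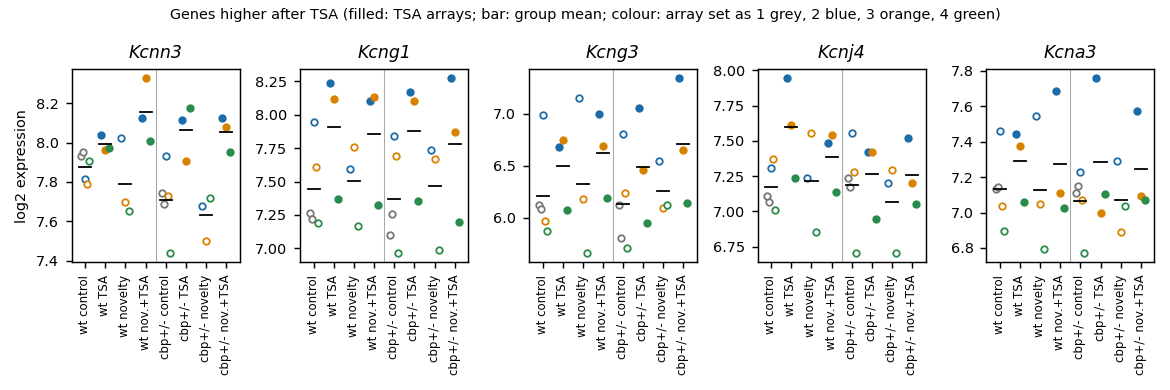
Log2 expression of the 5 genes that rose after TSA with array set as a block, on each array by group; filled points are TSA arrays, bars are group means and colours mark array sets. Kcnn3 and Kcng1 are higher with TSA than in the matching background of the same set in 12 of 12 cases, Kcng3 and Kcna3 in 10 and Kcnj4 in 9.

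The remaining members after TSA are given as values. Kcnh2, an ERG channel, differed by 0.19 ± 0.07 (adjusted p = 0.348), the leak channel Kcnk12 by 0.17 ± 0.09 and Kcnh4 by 0.13 ± 0.07. Smaller positive values were those of the G-protein-gated Kcnj5 (0.11 ± 0.06), of Kcnmb1, an accessory subunit of the large-conductance channel (0.11 ± 0.05), and of Kcnk5 (0.08 ± 0.03), while Kcnj13 stood at 0.25 ± 0.39. On the negative side were Kcns2 at -0.28 ± 0.11 (adjusted p = 0.413), Kcnt2 at -0.21 ± 0.08, Kcnj14 at -0.17 ± 0.07, Kcnj6 at -0.14 ± 0.07, Kcnb2 at -0.11 ± 0.06, Kcnh7 at -0.11 ± 0.06, Kcnj3 at -0.11 ± 0.06 and Kcns3 at -0.07 ± 0.04. Kcns2 was called lower when the label number was the block (-0.35, adjusted p = 0.00991). That block set the naive controls, where Kcns2 read 7.29 to 7.51, beside TSA arrays of other sets; with array set as the block the difference of Kcns2 was -0.18 ± 0.07 (adjusted p = 0.144). By class, 7 of 8 Kv1 and 7 of 10 silent subunits were positive (medians 0.04 and 0.06), and 6 of 7 in the EAG, ERG and ELK class (median 0.06). The auxiliary subunits were 6 of 13 positive, inward rectifiers 6 of 15, leak channels 10 of 14, calcium- and sodium-activated channels 8 of 12, Kv2 to Kv4 3 of 7 and Kv7 0 of 3, with medians from -0.02 to 0.04. Among the HCN channels, which carry the opposing depolarizing current, Hcn3 rose with the block (0.21 ± 0.05, adjusted p = 0.0239), 1 of 3 measured, and 0 of 27 partners were called in either fit. In single backgrounds 0 members were called in either fit, against 0% of genes in each without a block and 0.0201% to 0.0702% with it; at an unadjusted p under 0.05 without a block the members numbered 8 in wild type and 2 in cbp+/- in the cage, and 4 and 2 after novelty, against 5.17%, 2.45%, 3.26% and 1.78% of genes.

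The third comparison asked what 1 h of novelty does. No member passed: 0 of 92 were called by limma without a block, against 0.191% of genes, and 4 had an unadjusted p under 0.05 (3.2% of genes); with array set as a block 0 were called, against 0.476%, and 6 had an unadjusted p under 0.05 (8.21%). The immediate early genes, which neurons switch on within minutes of activity, were all higher in the same comparison (8 of 8 called, median 1.27). The largest positive member was Kcnj2, a strong inward rectifier, at 0.24 ± 0.14 without a block and 0.32 ± 0.09 with it (adjusted p = 0.135).

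Kcnj2 read 5.99, 5.97, 5.70, 5.25 and 5.26 in wild-type controls, 6.25, 5.71 and 5.70 after wild-type novelty, 5.68, 5.20 and 5.33 after wild-type TSA, and 6.46, 5.14 and 6.23 after both. In cbp+/- mice Kcnj2 read 5.78, 5.66, 5.64, 5.25 and 5.36 in controls, 5.70, 5.88 and 5.57 after novelty, 6.37, 5.53 and 5.29 after TSA, and 6.12, 5.38 and 5.61 after both. The groups overlapped, the naive controls were as high as many novelty arrays, and 9 of 12 within-set differences were positive. The difference of Kcnj2 passed with the block when wild-type novelty with TSA replicate 2 was left out (0.41, adjusted p = 0.00232), and likewise without cbp+/- novelty replicate 1 (0.38, adjusted p = 0.0454) and without array set 3 (0.38, adjusted p = 0.0485).

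On the negative side, Kcnj9, a G-protein-gated rectifier, was lowest by p at -0.18 ± 0.06 (adjusted p = 0.668; 0.263 with the block) and lower in 10 of 12 within-set differences. Against the same set and background, its mean difference was -0.12, -0.20 and -0.19 in sets 2 to 4. Kcnj9 read 7.94, 7.90 and 7.95 in wild type and 7.92, 7.90 and 7.47 in cbp+/- after novelty with vehicle. Controls of Kcnj9 ran from 7.69 to 8.11, so these novelty arrays lay within the control range apart from the 7.47. After novelty with TSA it read 7.69, 7.65 and 7.82 in wild type and 7.71, 7.62 and 7.55 in cbp+/-. Of these 6 arrays 4 lay at or under the lowest control, a contrast that holds both treatments. Kcnb2, Kcnj14 and Kcna4 differed by -0.14 ± 0.06, -0.17 ± 0.07 and -0.21 ± 0.09 without a block (each adjusted p = 1). The controls in that fit include the naive arrays, where Kcna4 read higher than in vehicle controls. Within sets, against vehicle controls or TSA, Kcna4 was higher after novelty in 6 and lower in 6 of 12 differences (median -0.01). Kcnb2 and Kcnj14 were each lower in 10 of 12. All 7 Kv2 to Kv4 subunits were negative (median -0.08, or -0.07 with the block), Kcnd3 at -0.10 ± 0.06 and Kcnc2 at -0.09 ± 0.07, with 0 called. The share of all genes negative is not given here. By array set, all 7 had negative means in sets 3 and 4. In set 2 Kcnb2, Kcnc1, Kcnc2, Kcnc4 and Kcnd2 had positive means (0.0031 to 0.0552), and Kcnd1 and Kcnd3 negative ones. Kcnk2, a mechanosensitive leak channel, differed by -0.10 ± 0.10, Kcnmb2 by -0.07 ± 0.06, Kcnu1 by -0.06 ± 0.04 and the Kv4 partner Kcnip1 by 0.11 ± 0.11. Kv1 subunits were 4 of 8 positive, silent subunits 4 of 10, auxiliary 5 of 13, inward rectifiers 5 of 15, leak channels 8 of 14, and calcium- and sodium-activated channels 5 of 12, among them Kcnmb4, an accessory subunit of the large-conductance channel, at 0.13 ± 0.06 and Kcnn2 at 0.11 ± 0.07. In single backgrounds 0 members were called in either fit, against 0.0351% of genes in wild type and 0.0251% in cbp+/- with vehicle and 0.01% in each genotype with TSA without a block, and 0.0451% to 0.11% with it. At an unadjusted p under 0.05 without a block there were 1, 3, 1 and 2 members, against 2.46%, 1.96%, 1.48% and 0.772% of genes.

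The control group mixed naive and vehicle-injected mice, and 3 members differed between them: 3 of 92 were lower after vehicle and 0 higher, against 1.32% and 1.08% of genes. Kcna4, the Kv1 subunit of A-type current in axons, read 8.38, 8.31, 8.44 and 8.28 in the 4 naive arrays and 7.63, 7.78, 7.77, 7.70, 7.94 and 7.90 in the 6 vehicle arrays, without overlap (-0.57 ± 0.10, 0.676 times the naive level, adjusted p = 0.00264, limma). Kcnj16 read 6.99, 6.91, 6.92 and 6.97 in naive and 6.47, 6.40, 6.38, 6.54, 6.25 and 6.52 in vehicle arrays (-0.52 ± 0.11, adjusted p = 0.0156). Kcnt2 read 8.44, 8.37, 8.33 and 8.37 in naive and 7.86, 7.86, 8.04, 7.85, 8.05 and 8.15 in vehicle arrays (-0.41 ± 0.11, adjusted p = 0.0432). Both were also without overlap, and the share of all genes without overlap between naive and vehicle arrays was not counted. The naive arrays made up array set 1, and no array of another condition was in it, so injection and array set cannot be told apart. The Kcnt2 call was lost with quantile normalization repeated (adjusted p = 0.0836), median centring (0.0635), an intensity trend (0.0732), without the 3 arrays with raised choroid plexus markers (0.0936) and without any of 10 of the 28 single arrays. Without 1 of the naive arrays, whichever it was, Kcna4 was the 1 call that remained. Array weights gave 13 calls, a count given here without the share of all genes.

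Array set took up much of the family's variation. In 44 of 92 members over 50% of the variance lay between the 4 sets (median over members 47.7%). Over 50% lay between the 8 groups in 3 members, Kcns3, Kcnn3 and Kcnk5. These shares were not computed for all genes, so the counts do not set the members apart from other genes. A split into 8 groups takes up more variance by chance than a split into 4 sets, so the 2 shares are not directly comparable. Kcna6, a Kv1 subunit, had 92% between sets: it read 7.42 to 7.57 in set 1, 7.74 to 7.92 in set 2, 7.30 to 7.54 in set 3 and 6.78 to 7.23 in set 4, with both genotypes together in each. The leak channel Kcnk9 had 90.4% between sets and read 7.79 to 8.23 in set 2 and 6.81 to 7.19 in set 4. The median residual SD of members was 0.198 without a block and 0.129 with array set, close to the 0.184 and 0.126 of all genes. The standard deviation over all 28 arrays ran from 0.0927 (Kcnk5) to 1.01 (Kcnj13), with a median of 0.198.

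**Figure D4:**
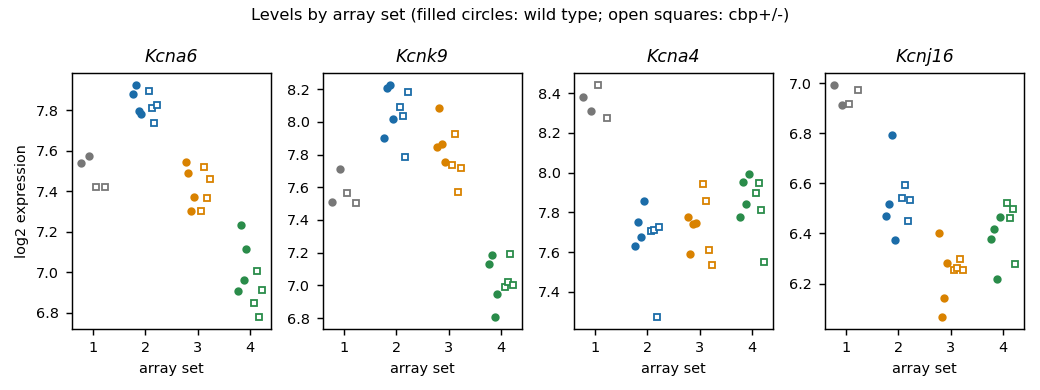
Log2 expression of Kcna6, Kcnk9, Kcna4 and Kcnj16 on each of the 28 arrays by array set, wild type as filled circles and cbp+/- as open squares. Kcna6 and Kcnk9 are low in set 4 in both genotypes, and Kcna4 and Kcnj16 are high in set 1, the naive controls.

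Kcnj13, an inward rectifier of choroid plexus epithelium, had the widest spread of the family. It read 7.91 in cbp+/- control replicate 3, 7.92 in wild-type novelty with TSA replicate 1 and 7.53 in cbp+/- TSA replicate 1, and 4.29 to 6.22 (median 4.77) in the other 25 arrays. The same 3 arrays had the choroid plexus marker list raised by 1.23 to 1.61 above its median level, against -0.19 to 0.66 in the others, and Ttr at 12.2 to 12.6 against 6.61 to 11.5. These arrays belong to 3 different groups, but all 3 lie in array set 2. The genotype difference of Kcnj13 was 0.11 ± 0.39 (adjusted p = 1), with a sign that array weights turned. Kcne2, an auxiliary subunit also known from choroid plexus, read 4.39 to 4.79 in the 3 arrays and 4.09 to 4.41 in the others, and differed by -0.00 ± 0.06 between genotypes, with a sign that quantile normalization and median centring turned. Without the 3 arrays, the block gave 2 members lower in cbp+/- (Kcnq3 and Kcna1) and 4 higher after TSA (Kcng1, Kcng3, Kcnj4 and Kcnn3), and Kcnn3 remained the 1 member called for TSA without a block.

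**Figure D5:**
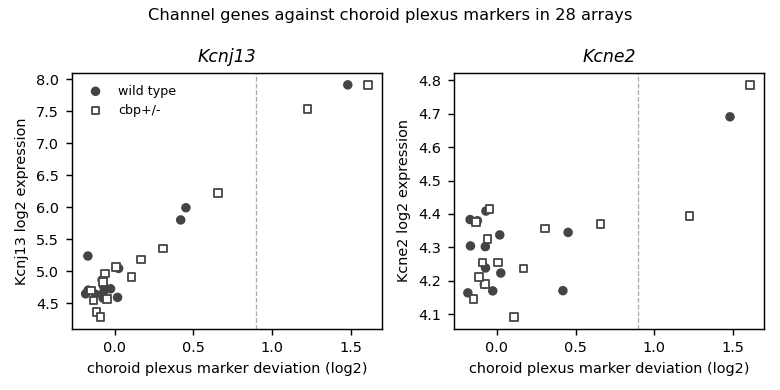
Log2 expression of Kcnj13 and Kcne2 against the mean deviation of the choroid plexus marker list (log2) in the 28 arrays, wild type as filled circles and cbp+/- as open squares; the dashed line is at 0.9. Kcnj13 rises with the markers and reaches 7.53 to 7.92 in the 3 arrays right of the line.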

How the data were processed

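Hippocampal RNA from 28 pools of mice was hybridised to Affymetrix Mouse Gene 1.0 ST arrays. The values are log2 expression per transcript cluster as deposited by the authors, who processed them in GeneSpring GX 11 per the labels' protocols and with RMA per the submitters' processing notes; for the genome build, nothing was given in the sources used here. RMA gives arrays a common distribution, so a shift of most transcripts would not be seen, and the table holds no detection call. Of 35556 rows, 21789 had 1 symbol in the platform's gene table, 1621 several and 12146 none; 999 genes had over 1 row and the row with the highest mean was kept (3 of the 92 members). Planned channel genes without a row of their own (6 of 95) were not analysed here.

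Tests used limma 3.58.1 (R 4.3.3): 1 mean per group, all 28 arrays in 1 fit, two-sided, Benjamini-Hochberg over 19938 genes, threshold 0.05. Naive and vehicle controls formed 1 group, apart from a fit that compared them. The fits were checked on simulated data. Deviations of same-numbered arrays of both genotypes in a condition correlated at 0.44 to 0.70 (14 pairs), and other-numbered ones at -0.58 to 0.51 (38 pairs). These ranges overlapped, so pairing genotypes by number rests on the higher correlations and not on a clean separation. Same-numbered TSA and novelty arrays correlated at 0.52 to 0.80 (45 pairs), and other-numbered ones at -0.63 to -0.07 (90 pairs). Controls correlated with same-numbered TSA and novelty arrays at -0.58 to 0.23 (36 pairs). Within the array sets vehicle controls correlated with them at 0.41 to 0.74 (36 pairs), and controls across sets at -0.59 to 0.43 (144 pairs). The sets were therefore a block in a second fit. Named were members called in either fit, those of smallest unadjusted p up to 20 in the 3 averaged comparisons, the lowest and highest of each class by genotype difference, and a set of main hippocampal and cell-type subunits. Kcnh1, Kcna6 and Kcnk9, and Kcnk5 and Kcna7 in the interaction, were chosen after their values were seen. The members, lists and array sets were chosen with earlier results of these data known. Alternatives were other blocks, vehicle controls only, other scalings, filters and weights, and leaving out each array. The fits without array set 2, 3 or 4 and with vehicle controls and the block were added after seeing the data.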

Additional observations from a re-analysis of the deposited data

Results flagged for a closer look

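In 126 control groups of 5 arrays (63 named genes in both genotypes), 5 values lay apart from the other 4 arrays of their group by a Dixon ratio above its critical value, where chance gives about 1 in 20 groups. Kcng3 read 6.99 in wild-type control replicate 3 and 5.87 to 6.13 in the other wild-type controls. Kcnj13 read 7.91 in cbp+/- control replicate 3 and 4.55 to 5.36 in the others, and this array also had raised choroid plexus markers. Kcnk2, a mechanosensitive leak channel, read 7.22 in control replicate 5 of both genotypes, both of array set 4, against 7.70 to 7.88 in the other wild-type and 7.73 to 7.88 in the other cbp+/- controls. Kcnu1, a channel known from sperm, read 4.24 in cbp+/- control replicate 4 against 4.06 to 4.10.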

How the results depend on the processing

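Counts of called members moved in these cases. For genotype over all conditions the count was 0, and 3 with array set as a block; under that block, leaving out array set 3 or array set 4 gave 0, and leaving out single arrays 2 to 4. The replicate block by condition and number, and by label number, gave 0. For TSA over all backgrounds it was 1, and 5 with array set as a block, 2 with the replicate block by label number and 2 with array weights; under the array set block, leaving out set 2, 3 or 4 gave 3, 3 and 2, and leaving out single arrays 3 to 6, with 3 when cbp+/- control replicate 5 or cbp+/- novelty with TSA replicate 1 was left out. For TSA in wild-type cage mice 0 became 1 with the label-number block (Kcns2) and 20 with array weights. For novelty with the block 0 became 1 without array set 3 and 0 to 1 without single arrays. Vehicle against naive controls gave 3, 13 with array weights and 1 to 4 without single arrays. The shares of all genes called with array weights are not given here, so the counts with weights do not set the members apart from other genes. The cause of these moves was not tested. Fewer arrays also leave fewer degrees of freedom.

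Genotype differences near 0 changed sign. These were Kcna7 (0.002 with median centring, 0.0153 with array weights), Kcnv2 (-0.0114 with vehicle controls only, -0.0079 with weights), Kcnj13 (-0.006 with weights), Kcne2 (0.0103 with vehicle controls only, 0.0036 with quantile normalization, 0.0081 with centring), Kcnj10 (0.0122, 0.0006 and 0.0059 in the same 3 settings), and with weights Kcnj16 (-0.0304), Kcnj8 (0.0321) and Kcnd2 (-0.007). Without single arrays the ranges were -0.0347 to 0.0157 for Kcna7, -0.029 to 0.0243 for Kcnv2, -0.111 to 0.386 for Kcnj13, -0.0272 to 0.0282 for Kcne2, -0.0919 to 0.0819 for Kcnj10, -0.0009 to 0.0837 for Kcnj16, -0.0685 to 0.0173 for Kcnj8, -0.0074 to 0.0528 for Kcnd2, -0.055 to 0.0088 for Kcnma1, -0.0017 to 0.046 for Kcnq1 and -0.0007 to 0.0406 for Kcnk18.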
